A study of Mus musculus with 12 samples.

Results

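The data described here are the differences between D316Y and wild-type (WT) mouse macrophages that were shared by resting and lipopolysaccharide-treated cells. They were read as the genotype term of an additive model over all 12 libraries of the series, 6 of D316Y and 6 of WT, with lipopolysaccharide (LPS) as the other term. Of 12441 genes in the deposited table, 11918 were tested. Each had a mean of at least 0 on the deposited log2 CPM scale in at least 1 of the 4 groups. On this scale reads are divided by an effective size of each library, which differed from its counted reads. The macrophages had been grown from bone marrow, freed of red blood cells, for 6 days with 10% L929-conditioned medium, a source of macrophage colony-stimulating factor. WT and D316Y cells were either left unstimulated, called at rest below, or kept with 100 ng/mL LPS for 24 h, with 3 libraries in each of the 4 groups. The series title describes the D316Y change of COQ6 as homozygous, so both copies of the gene carry it. The sources used here do not give the sex and strain of the mice, or whether libraries of 1 number came from 1 animal. The 6 libraries of a genotype may therefore stand for fewer than 6 mice, and p-values measure the spread between these libraries only.

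Coenzyme Q is a lipid of the inner mitochondrial membrane that carries electrons between the enzymes of the respiratory chain. COQ6 is a flavin-dependent monooxygenase that adds a hydroxyl group to the ring of its precursor, and D316Y replaces an aspartate of COQ6 with a tyrosine. LPS, a lipid of the bacterial outer membrane, activates macrophages through Toll-like receptor 4 and rewrites much of their gene expression, so a difference seen with and without it is one that this large change did not remove.

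Coq6 itself was measured first. The codon that D316Y alters is shown with its neighbours, because it is the place where the genotypes are defined to differ. It lies on the plus strand at chr12:84372169-84372171 of GRCm38, in exon 9 of 12 of the transcript ENSMUST00000021661 of GENCODE M21, and the capitals mark the aspartate codon of the reference. The labels do not give the base change, and a table of reads per gene holds no bases, so the codon itself was not checked in these libraries.

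Coq6 reference codon: acagacttcgtcGACtctgccagcgcc

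Coq6 (ENSMUSG00000021235, chromosome 12 at 84361657 to 84373796) had 3.52, 3.49 and 3.45 log2 CPM in the WT libraries at rest and 3.71, 3.37 and 3.60 in D316Y. With LPS the values were 3.40, 3.65 and 3.65 in WT and 3.81, 3.41 and 3.53 in D316Y, so the genotypes overlapped in both conditions. The D316Y term was 0.04 (SE 0.10, 95% interval -0.17 to 0.26, limma adjusted p 0.885). Of 97 other genes tested within 10 Mb of Coq6, 0 passed the limma test, near the 0.0671% of all genes. An unadjusted limma p under 0.05 was found for 9 of the 97 (9.28%), near the 8.58% of all genes.

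The term passed an adjusted p of 0.05 for 8 of 11918 genes (0.0671%, limma with Benjamini-Hochberg adjustment), 3 of them higher in D316Y (0.0252%) and 5 lower (0.042%). Higher were Ifi208, Dhcr7 and Selenbp2, and lower were Rab4a, Ide, G530011O06Rik, Cnbd2 and Gm36079. All terms below are D316Y minus WT on the log2 scale. For each of the 8 genes the 3 D316Y libraries lay on 1 side of the 3 WT libraries at rest and again with LPS, and for 6 of them all 6 D316Y libraries lay on 1 side of all 6 WT libraries. The separation within each condition, in the same direction in both, was found for 119 of all genes (0.998%), 38 higher (0.319%) and 81 lower (0.68%). The separation over all 12 libraries was found for 16 of 11918 genes, 6 higher and 10 lower. An unadjusted p under 0.05 was found for 1023 genes (8.58%), 480 with a positive and 543 with a negative term. Among 106 genes with a term beyond 1 in either direction, 7 passed. The median SE over all genes was 0.15 and the median half-width of the 95% interval 0.31.

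**Figure D1:**
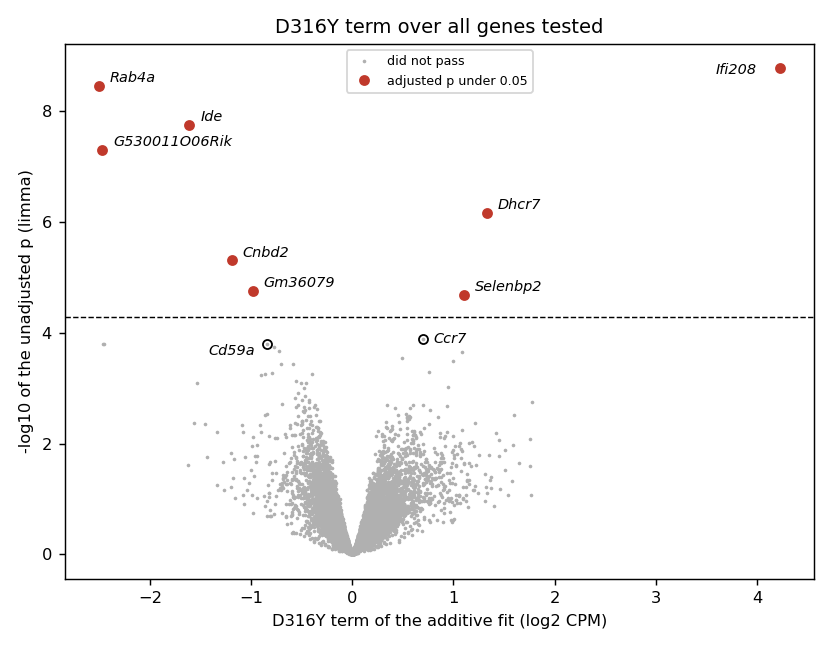
D316Y term of the additive fit (x axis, log2 CPM, D316Y minus WT) against -log10 of the unadjusted limma p (y axis) for the 11918 genes tested. Red points are the 8 genes with an adjusted p under 0.05, the dashed line marks that limit, and the open circles are Ccr7 and Cd59a, the next 2 genes by p; Ifi208 stands alone at the right with a term of 4.23.

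The libraries held between 32767773 and 47181104 reads in the genes of the table. Mitochondrially encoded genes took 0.449% to 2.15% of the reads in the WT libraries and 0.949% to 2.97% in D316Y, and replicate 1 at rest had the lowest share of its group in both genotypes. Without both of these replicate 1 libraries, 18 genes passed, 11 higher and 7 lower, among them all 8 named above. With the mitochondrial read share as a covariate the same 8 genes kept their calls. Csf1r, Adgre1, Cd68 and the other 22 markers of macrophage identity were measured in every library. Ly6g, Elane and Mpo of neutrophils, Cd3e of T lymphocytes, and Zbtb46, Flt3 and Clec9a of dendritic cells were not among the genes analysed here. Other markers were: 9 of 15 listed for neutrophils, 8 of 11 for dendritic cells and 2 of 18 for lymphocytes, mast and erythroid cells. With LPS those of neutrophils summed to 719 to 1028 CPM in WT and 631 to 791 in D316Y.

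Ifi208 showed the largest difference. It belongs to the Ifi200 family, interferon-inducible proteins that include sensors of nucleic acids such as Aim2. At rest it had -1.13, -1.28 and -1.23 log2 CPM in WT, from 25, 19 and 17 reads, and 2.32, 1.39 and 3.61 in D316Y, from 260, 145 and 597 reads. With LPS it had 0.23, 0.74 and 1.02 in WT and 5.26, 5.47 and 5.66 in D316Y, where 1395, 1671 and 1650 reads were counted. The lowest D316Y library thus lay above the highest WT library, although both genotypes had more Ifi208 with LPS than at rest. The term was 4.23 (SE 0.32, adjusted p 2.03e-05), an 18.8-fold difference. The difference was 3.66 at rest (SE 0.41) and 4.80 with LPS (SE 0.41), and the D316Y libraries at rest spread more (SD 1.11, n = 3) than those of the other 3 groups. Their interaction was 1.14 (SE 0.58, unadjusted p 0.0708), which did not pass.

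Ifi208 lies on chromosome 1 at 173673675 to 173698395 on the plus strand, within the cluster of its family. The 250 bases before its RefSeq start are shown because this gene had the largest term of those tested. They span chr1:173673415-173673664 of GRCm38.p6 on the plus strand, with capitals for a TATA box (TATAAA) and for the core of an interferon-stimulated response element, both searched on both strands. The first pattern was found in 12.4% and the second in 2.98% of 32851 RefSeq promoter windows of this length. A match describes letters only and shows no binding.

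Ifi208 promoter: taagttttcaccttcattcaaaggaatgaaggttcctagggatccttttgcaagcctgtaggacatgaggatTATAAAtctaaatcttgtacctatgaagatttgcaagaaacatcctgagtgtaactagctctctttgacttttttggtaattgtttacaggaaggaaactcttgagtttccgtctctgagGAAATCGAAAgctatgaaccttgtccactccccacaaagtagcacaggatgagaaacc

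The other 11 measured members of the Ifi200 family did not pass, and over all genes 0.0671% did. Each of the 11 had a negative difference at rest and a positive one with LPS, while Ifi208 was positive in both: Ifi204 had -0.52 at rest and 0.06 with LPS (term -0.23, adjusted p 0.684), and Ifi206 -0.96 and 0.25 (term -0.36, adjusted p 0.694). Ifi213 (chromosome 1, minus strand) is the most similar gene: its transcripts match 2749 bases of the longest Ifi208 transcript at 96.4% identity, so reads of the pair may be split between them. At rest the WT libraries held 1323, 898 and 706 reads of Ifi213 and those of D316Y 516, 432 and 1027. With LPS they held 4004, 4372 and 4856 in WT against 5337, 5430 and 3101 in D316Y, and the term of Ifi213 was -0.26 (SE 0.24, adjusted p 0.732). At rest its difference was -0.75, against 3.66 for Ifi208, and the genotypes overlapped.

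**Figure D2:**
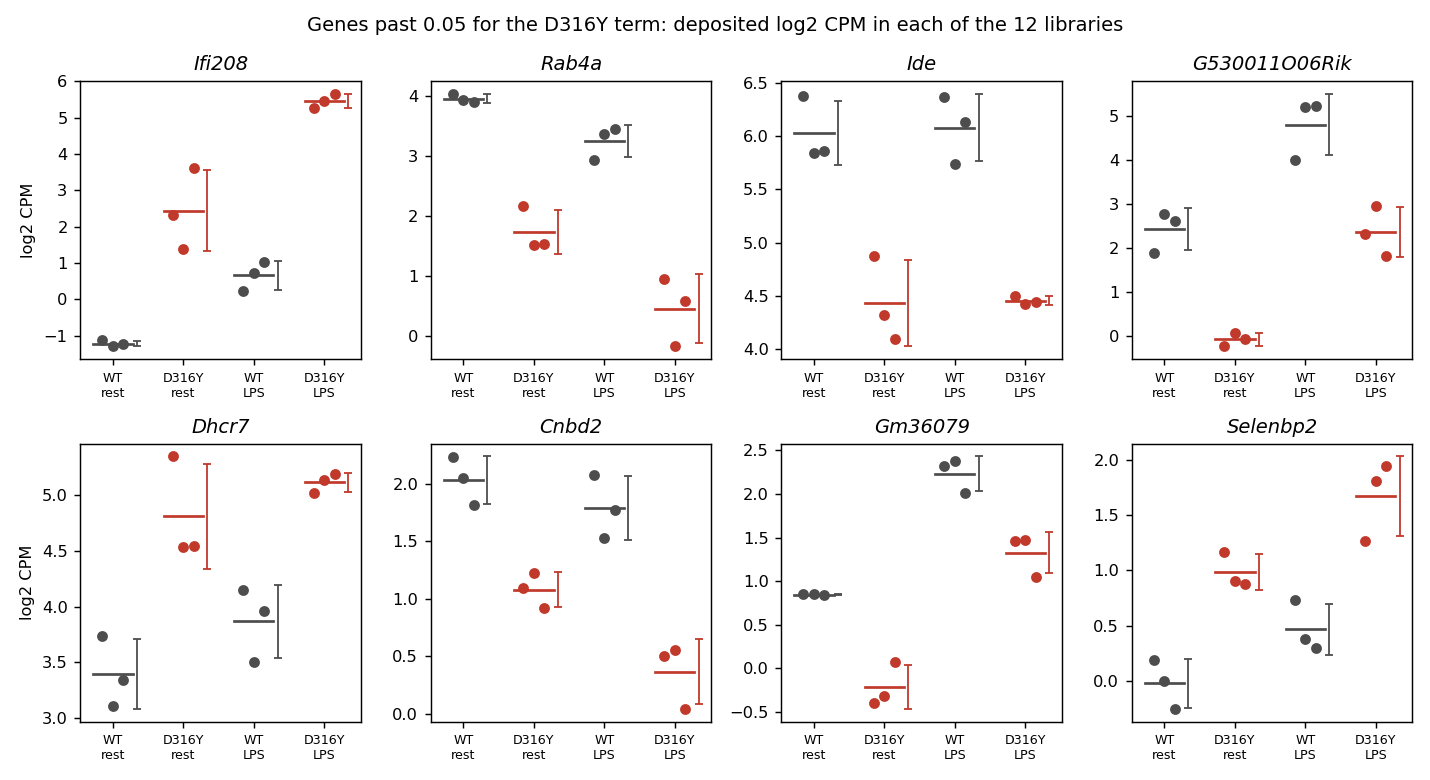
Deposited log2 CPM (y axis, own scale in each panel) of the 8 genes that passed, by genotype and condition (x axis). Points are libraries, horizontal lines are means of 3 and bars are 1 SD; in every panel the red D316Y points and the grey WT points of a condition do not overlap, as for Ifi208 at -1.28 to -1.13 in WT and 1.39 to 3.61 in D316Y at rest.

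Rab4a fell the most. It encodes a small GTPase of early endosomes that sends internalized receptors back to the cell surface by a fast route. It had 4.03, 3.92 and 3.90 log2 CPM in WT and 2.16, 1.52 and 1.53 in D316Y at rest. With LPS it had 2.93, 3.36 and 3.44 in WT and 0.95, -0.17 and 0.57 in D316Y. Every D316Y library lay below every WT library, and within each genotype the LPS libraries lay below those at rest. The term was -2.50 (SE 0.20, 95% interval -2.93 to -2.08, adjusted p 2.07e-05), a 5.67-fold difference, with -2.22 at rest and -2.79 with LPS. Rab4a lies on chromosome 8 at 123805985 to 123835287, inside the longer gene model Gm20388 of the same strand. Of 27 other genes tested within 1 Mb of it 0 passed, near the 0.0671% of all genes. An unadjusted limma p under 0.05 was found for 1 of them (3.70%), against 8.58% of all genes. That gene was Urb2 (-0.46, limma adjusted p 0.571).

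Rab4a was the 1 member of 31 measured genes of endocytic Rab GTPases and recycling that passed, and over all genes 0.0671% did. Rab4b, its close relative, had a term of -0.08 (SE 0.13, adjusted p 0.834) and overlapped between the genotypes. Rab5a, Rab5b and Rab5c of early endosomes had terms of -0.13, 0.01 and -0.18, and Rab11a and Rab11b of the slow recycling route -0.08 and -0.14, none of which passed. Over the list 25 terms were negative and 6 positive, with a median of -0.09. Over all genes the median was -0.01, and 47.1% of terms were positive. The list's median was -0.06 without WT replicate 1 at rest and -0.13 without D316Y replicate 1 at rest. An unadjusted limma p under 0.05 was found for 6 of the 31, Rab4a included and all lower, against 8.58% of all genes. Tfrc, the transferrin receptor, is cargo of endosomal recycling. The WT libraries at rest held 1548, 850 and 546 of its reads and those of D316Y 914, 652 and 582. With LPS the counts of Tfrc were 693, 501 and 534 against 298, 340 and 330, and its term of -0.55 (SE 0.16, adjusted p 0.564) did not pass.

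Ide fell in D316Y, with close estimates in both conditions. It encodes the insulin-degrading enzyme, a zinc metalloprotease of the M16 family that cuts insulin and other small peptides. At rest it had 6.37, 5.84 and 5.86 log2 CPM in WT and 4.88, 4.32 and 4.10 in D316Y. With LPS the WT libraries had 6.37, 5.74 and 6.14 and those of D316Y 4.50, 4.42 and 4.44. The difference was -1.60 at rest and -1.62 with LPS (SE 0.21 each), with an interaction of -0.03 (SE 0.30), the term -1.61 (SE 0.14, adjusted p 7.10e-05), a 3.05-fold difference, and the 2 genotypes did not overlap across all 12 libraries. Ide lies on chromosome 19 at 37268743 to 37337852 on the minus strand. Of 12 genes tested within 1 Mb, 0 passed, near the 0.0671% of all genes. An unadjusted limma p under 0.05 was found for 2 of them (16.7%), against 8.58% of all genes. Kif11 beside Ide had -0.12, Hhex 0.02, Cpeb3 0.19 and Btaf1 -0.43 (limma adjusted p 0.564).

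The other 7 measured genes of the M16 family and of related peptidases did not pass, and over all genes 0.0671% did. The mitochondrial processing peptidase subunits Pmpca and Pmpcb had terms of -0.05 and 0.01, the presequence protease Pitrm1 -0.01 and nardilysin, listed as Nrd1, -0.10. Ide is also on a list of genes known to vary in sequence, copy number or level between C57BL/6 mouse lines. Of its other 3 measured genes, Nnt had a term of -0.08, Cyfip2 of -0.09 and Wdfy1 of 0.55 (SE 0.26, adjusted p 0.571), and none passed. The strain of these mice is not given, and its part in the Ide difference was not tested.

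Dhcr7 rose in D316Y. It encodes the reductase that turns 7-dehydrocholesterol into cholesterol, the closing step of one branch of the pathway. It had 3.74, 3.11 and 3.34 log2 CPM in WT and 5.35, 4.53 and 4.55 in D316Y at rest. With LPS the values of Dhcr7 were 4.14, 3.50 and 3.96 in WT and 5.02, 5.14 and 5.19 in D316Y. The lowest D316Y library lay above the highest WT library over both conditions. The term was 1.33 (SE 0.16, 95% interval 0.99 to 1.67, adjusted p 0.00163), a 2.52-fold difference, with 1.42 at rest and 1.25 with LPS.

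The other enzymes of sterol synthesis are given by their values, since a count of 0 in lists this short is near the 0.0671% of all genes. Of the other 10 measured enzymes after lanosterol 0 passed and 9 had negative terms: Cyp51, which removes a methyl group from lanosterol, had -0.18 (SE 0.16, adjusted p 0.727), and Msmo1 -0.12. Sc5d, the enzyme that makes 7-dehydrocholesterol, had 0.01 (SE 0.14). Of 12 measured enzymes of the mevalonate pathway up to lanosterol 10 had negative and 2 positive terms, each with the same sign in both conditions, and 0 passed; Sqle, the squalene epoxidase, had -0.24. The median was -0.15 for that list and -0.12 for the late sterol enzymes, Dhcr7 included. Without D316Y replicate 1 at rest these medians were -0.26 and -0.23, and with the mitochondrial read share as a covariate -0.08 and -0.05.

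The bases before the first of 3 RefSeq starts of Dhcr7 are shown because sterol enzymes are commonly driven together through sterol regulatory elements. They span chr7:143822917-143823166 of GRCm38.p6 on the plus strand, and the capitals mark a GC box (GGGCGG, on either strand), found in 32.7% of windows. The core of a sterol regulatory element (TCACNCCAC, both strands, 1.05% of windows) was not found in this window, nor in those of the other 2 starts, which says nothing of the factor.

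Dhcr7 promoter, first start: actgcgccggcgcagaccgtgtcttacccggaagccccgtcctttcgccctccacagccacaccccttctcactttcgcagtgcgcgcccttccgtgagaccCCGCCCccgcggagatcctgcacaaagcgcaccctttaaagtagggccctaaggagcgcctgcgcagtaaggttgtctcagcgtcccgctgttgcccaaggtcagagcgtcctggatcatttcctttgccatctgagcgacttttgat

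G530011O06Rik, an RNA gene with no known protein, fell in both conditions. It had 1.88, 2.78 and 2.62 log2 CPM in WT and -0.23, 0.08 and -0.07 in D316Y at rest. With LPS it had 3.99, 5.19 and 5.22 in WT and 2.33, 2.94 and 1.81 in D316Y. The genotypes did not overlap within a condition, but D316Y with LPS reached the level of WT at rest. The term was -2.47 (SE 0.24, adjusted p 1.51e-04), a 5.54-fold difference, with -2.50 at rest and -2.44 with LPS, while both genotypes were higher with LPS.

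Its reads are uncertain in origin. G530011O06Rik lies on chromosome X at 169975043 to 169978917 on the minus strand, inside Mid1 on the plus strand, and the sources do not say whether reads were counted by strand. RefSeq places a copy on chromosome Y as well. The bases before the 2 starts are shown because they are nearly the same: 242 of 244 aligned bases are identical. The first spans chrX:169978918-169979167 and the second chrY:90755051-90755300 of GRCm38.p6, both on the minus strand. The capitals mark a CCAAT box (CCAAT, on either strand, 33.9% of windows), which was found in the window of the X copy and not in that of the Y copy.

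G530011O06Rik, X copy: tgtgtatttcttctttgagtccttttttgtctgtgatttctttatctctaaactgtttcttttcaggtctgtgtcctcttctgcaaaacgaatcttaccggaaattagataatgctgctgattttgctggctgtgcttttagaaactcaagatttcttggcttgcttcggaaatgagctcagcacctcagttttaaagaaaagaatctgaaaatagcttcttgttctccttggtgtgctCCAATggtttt
G530011O06Rik, Y copy: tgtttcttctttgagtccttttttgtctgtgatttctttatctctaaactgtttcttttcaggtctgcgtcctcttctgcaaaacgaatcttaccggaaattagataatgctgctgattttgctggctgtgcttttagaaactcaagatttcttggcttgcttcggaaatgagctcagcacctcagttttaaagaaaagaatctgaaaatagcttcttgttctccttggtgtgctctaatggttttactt

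Some genes at or near the 2 copies had negative terms that did not pass, while Gm15261, within 1 Mb of the X copy, had a positive one of 1.45. These genes were picked with their values in view. Mid1 spans the X copy, and Gm21860 lies just past the start of the Y copy on the same strand. The longest transcript of G530011O06Rik matches Mid1 over 737 bases at 100% identity. In all, 123 other genes, Mid1 included, match part of it at 90% or more, so reads may be shared among them. The reads of Mid1 were 39, 63 and 45 in WT against 4, 37 and 33 in D316Y at rest, and 39, 48 and 44 against 9, 13 and 17 with LPS. Its term was -1.56 (SE 0.46, adjusted p 0.564), and its libraries did not overlap between genotypes. For Gm21860 on chromosome Y (90754513 to 90754821) they were 9, 15 and 10 against 4, 1 and 3 at rest, and 22, 46 and 70 against 4, 7 and 4 with LPS (term -2.46, SE 0.49, adjusted p 0.161). Gm21748, also on Y, held the same reads but for 1 library. Both genes passed the limma test without trend and robust moderation (adjusted p 0.0152) and with library weights (adjusted p 0.0112). The annotation places both on Y, and whether their reads came from X or Y was not tested. Of 4 measured genes outside this region that only Y carries, Uty, Kdm5d, Eif2s3y and Ddx3y had terms of 0.57, 0.61, 0.67 and 0.12, all positive, and none passed. An unadjusted limma p under 0.05 was found for 3 of these 4, all higher, against 8.58% of all genes. The mean of the 4 lay between 3.41 and 4.48 log2 CPM in each of the 12 libraries.

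Cnbd2, Gm36079 and Selenbp2 passed with smaller terms and low reads. Cnbd2, which encodes a protein with a cyclic nucleotide binding domain, had 262, 196 and 145 reads in the WT libraries at rest against 111, 129 and 92 in those of D316Y. With LPS there were 182, 109 and 140 reads against 51, 55 and 33, and its term was -1.19 (SE 0.17, adjusted p 0.00987), with all D316Y libraries below all WT libraries on the log2 CPM scale. Leaving out any 1 library kept the call, with adjusted p between 0.0118 and 0.0466.

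Selenbp2 encodes a selenium-binding protein. The WT libraries held 63, 47 and 34 of its reads at rest and 71, 49 and 50 with LPS. Those of D316Y held 117, 103 and 89 at rest and 87, 132 and 125 with LPS, and on the log2 CPM scale all of them lay above all WT libraries. Its term was 1.11 (SE 0.18, adjusted p 0.0308), with 1.01 at rest and 1.21 with LPS. Selenbp1 is a near-identical gene, 98.5% over 1712 bases, whose reads may be split with it. Selenbp1 had the opposite sign, at -0.44 (SE 0.15, adjusted p 0.564), with -0.52 at rest and -0.37 with LPS, and its libraries overlapped. The Selenbp2 call held without WT replicate 1 at rest or D316Y replicate 1 with LPS, and was lost without any 1 of the other 10 libraries, where adjusted p lay between 0.0602 and 0.147.

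Gm36079, a predicted gene on chromosome 13 at 120026439 to 120027011, had 100, 85 and 73 reads in the WT libraries at rest against 39, 44 and 51 in those of D316Y. With LPS it had 214, 197 and 165 against 100, 104 and 67, and its term was -0.98 (SE 0.16, adjusted p 0.0302). Its whole transcript of 573 bases matches Gm21188, a gene close by, at 99.8% identity, and Gm21188 had a term of -0.16 (SE 0.11, adjusted p 0.659). The Gm36079 call held without WT replicate 3 with LPS or D316Y replicate 3 at rest and was lost without any 1 of the other 10, with adjusted p between 0.0586 and 0.125.

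**Figure D3:**
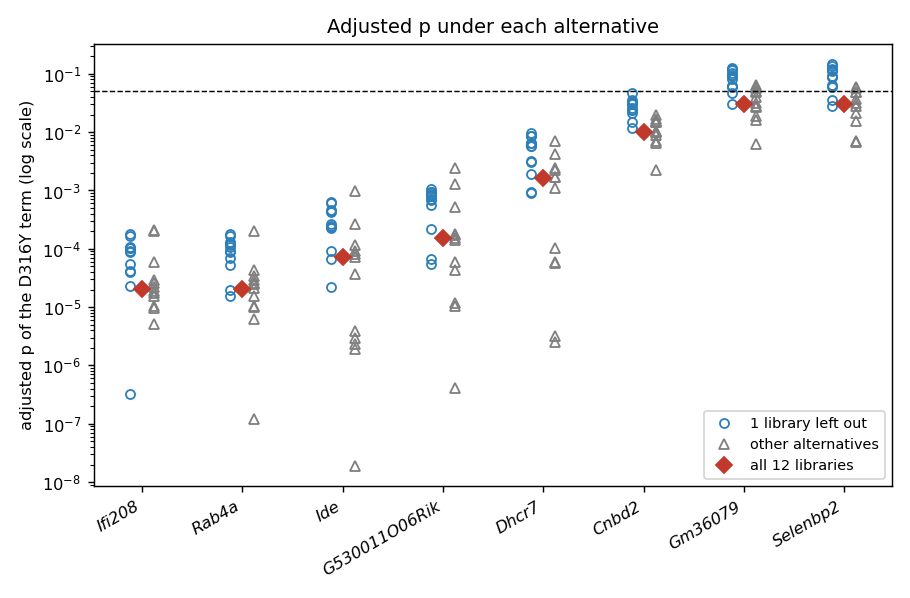
Adjusted p of the D316Y term (y axis, log scale) for the 8 genes that passed (x axis). Red diamonds use all 12 libraries, blue circles leave out 1 library each, grey triangles are the other alternatives, and the dashed line is 0.05; 6 genes stay below the line throughout, while Gm36079 and Selenbp2 reach 0.125 and 0.147.

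The authors' deposited table, which tests each condition by itself, gives adjusted p-values under 0.05 in both conditions to Ide (2.01e-06 at rest and 3.91e-07 with LPS), Rab4a (7.43e-06 and 1.2e-05) and Dhcr7 (7.2e-05 and 4.95e-05). Of the other genes here the authors' deposited table puts Ifi208 at 0.109 at rest and 1.97e-05 with LPS, and G530011O06Rik at 0.0614 and 2.39e-05. It puts Cnbd2 at 0.134 and 0.0356, Selenbp2 at 0.119 and 0.0356, and Gm36079 at 0.121 and 0.132.

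Below the threshold stood a set of genes with adjusted p from 0.161 upward. Ccr7, the receptor that guides mature dendritic cells and activated macrophages toward lymph nodes, came closest. Its reads were 54, 47 and 32 in WT against 96, 90 and 84 in D316Y at rest, and 684, 429 and 603 against 708, 708 and 623 with LPS (term 0.70, SE 0.13, adjusted p 0.161). Its libraries did not overlap on the log2 CPM scale in either condition, and the difference was 0.92 at rest and 0.47 with LPS. Itgax, Mgl2 and Clec10a, other markers of dendritic cells, had 0.41, -0.82 and -0.36, and that list had 4 positive and 4 negative terms. The 8 dendritic cell markers measured of 11 summed to 121 to 138 CPM in WT and 117 to 159 in D316Y at rest, and to 29.0 to 38.1 and 35.3 to 44.2 with LPS.

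Mefv, which encodes the inflammasome protein pyrin, had a term of 0.49 (SE 0.10, adjusted p 0.213), with 0.49 at rest and 0.48 with LPS. Cacnb3, a calcium channel subunit, had 0.99 (adjusted p 0.229), Dppa3 1.09 (adjusted p 0.178), Eps8l1 0.94 (adjusted p 0.389) and Dpep3, a membrane dipeptidase, 1.78 (adjusted p 0.547). For Cd59a, a surface inhibitor of complement, the reads were 1033, 519 and 556 in WT against 493, 397 and 366 in D316Y at rest. With LPS those of Cd59a were 612, 384 and 296 against 176, 234 and 177 (term -0.85, SE 0.17, adjusted p 0.161). Col18a1, a basement membrane collagen, had -0.77 (adjusted p 0.168), and Ddah2, which breaks down methylated arginines, -0.72 (adjusted p 0.178). Crlf2, a receptor chain for thymic stromal lymphopoietin, had -0.71 and Nt5dc2 -0.58. For each of these genes other than Crlf2 the libraries of the genotypes did not overlap in either condition. Such a separation was found for 119 of all genes (0.998%), and these genes were picked by their small p in the same libraries.

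The differences in the 2 conditions were compared next. Across the 11918 genes the difference at rest and that with LPS, taken from separate libraries, had a Pearson r of 0.38 and a Spearman rho of 0.36, and r was 0.37 without the 8 genes that passed. Genes are not independent replicates, and libraries of a group differ together in their share of mitochondrial reads. The sign was the same for 7600 genes (63.8%). Of the 100 genes with the smallest p at rest alone, 70 had the same sign with LPS, with a median of 0.20 in the direction seen at rest, against 0.82 at rest. Of the 100 with the smallest p with LPS alone, 96 had the same sign at rest, with a median of 0.44 against 0.77.

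**Figure D4:**
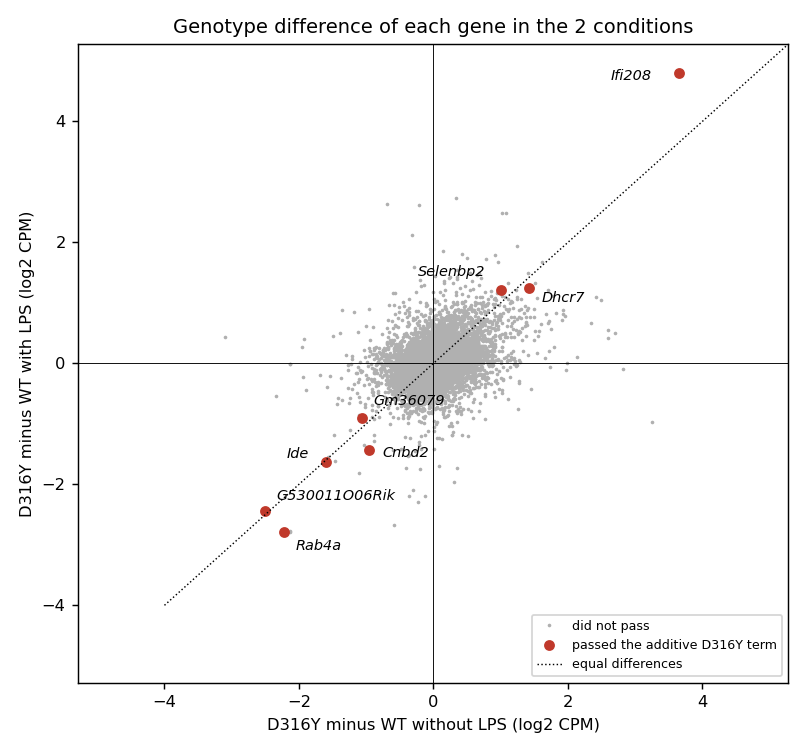
D316Y minus WT difference at rest (x axis, log2 CPM) against that with LPS (y axis, log2 CPM) for each gene tested; the dotted line marks equal differences. The 8 genes that passed (red) have the same sign on both axes, and some genes that did not pass (grey) lie farther out than the nearest of them, Gm36079 at -1.06 and -0.91; Ifi208 stands at 3.66 and 4.80 and G530011O06Rik at -2.50 and -2.44.

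The interaction of genotype and LPS, fitted over the 4 groups, passed for 0 genes by limma (smallest adjusted p 0.999), and 251 genes had an unadjusted p under 0.05. A p that misses the threshold does not show that a difference was equal in both conditions. For Rab4a the interaction was -0.58 (SE 0.38), for Cnbd2 -0.47 (SE 0.33) and for Dhcr7 -0.17 (SE 0.33).

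The gene lists were read by counts and medians, with no test of a list, since the members of a list share libraries. Their members other than Ifi208, Rab4a, Ide and Dhcr7 did not pass, and over all genes 0.0671% did. Of 23 measured genes of the tricarboxylic acid cycle and its carbon entry, all 23 had negative terms, 21 of them in both conditions, from -0.30 in Suclg2 to -0.03 in Idh3g. Idh2, the mitochondrial isocitrate dehydrogenase that makes NADPH, had -0.26 (SE 0.10, adjusted p 0.564). It was the 1 member of 23 with an unadjusted limma p under 0.05, against 8.58% of all genes. The list's mean spread by 0.21 (SD) between single libraries of a group, which is not the error of the median of -0.12. That median was -0.01 with the mitochondrial read share as a covariate. With 1 library left out it ranged from -0.20 (without D316Y replicate 1 at rest) to -0.06 (without WT replicate 1 at rest).

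Glycolysis and hypoxia genes had 30 negative and 4 positive terms of 34, with a median of -0.15 (-0.04 with that covariate, and -0.27 without D316Y replicate 1 at rest to -0.06 without WT replicate 1 with LPS). Slc16a3, which exports lactate, had -0.42, and Ddit4, which restrains mTOR signalling, -0.60, neither passing. Lysosome and phagocytosis genes had 31 negative and 6 positive terms with a median of -0.16 (-0.05 with the covariate and -0.09 without WT replicate 1 at rest). There Plbd2 had -0.45, Lamp1 -0.33 and Tfeb, a transcription factor of lysosomal genes, -0.27, while Atp6v0d2, a proton pump subunit, had 0.47.

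Macrophage identity genes had 19 negative and 6 positive terms of 25, with a median of -0.18. The list's mean spread by 0.14 (SD) between single libraries of a group, which is not the error of this median. The median was -0.12 without WT replicate 1 at rest, -0.25 without D316Y replicate 1 at rest and -0.11 with the mitochondrial covariate. Spi1, a transcription factor that macrophages need to form, had -0.30 (SE 0.10) and Klf4 0.67. The summed level of the 25 genes at rest was 53884 to 68354 CPM in WT and 47954 to 53539 in D316Y, and with LPS 78355 to 85839 and 68257 to 75579. In bulk samples fewer cells of a type and less RNA per cell cannot be told apart. The markers of neutrophils, 9 of 15 in the table, summed to 85.5 to 107 CPM in WT and 90.1 to 105 in D316Y at rest, and to 719 to 1028 and 631 to 791 with LPS. For monocytes and progenitors, 11 of 14 in the table, the sums were 96.3 to 113 and 105 to 121 CPM at rest, and 313 to 467 and 327 to 384 with LPS. Of these 11 markers 8 had negative terms, with a median of -0.31 (-0.32 at rest and -0.14 with LPS, and a term of -0.14 without WT replicate 1 with LPS), the lowest of the lists with at least 8 members tested. The part of these levels in the differences above was not tested.

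MHC class I presentation genes had 21 negative terms and 1 positive of 22, with a median of -0.24. The median was -0.13 without WT replicate 1 at rest and -0.14 without D316Y replicate 2 at rest. An unadjusted limma p under 0.05 was found for 4 of the 22, against 8.58% of all genes. The macrophage identity list had 4 of 25 and the integrated stress response list 5 of 26. H2-K1, a classical class I heavy chain, had -0.28 (SE 0.13, adjusted p 0.571), with -0.41 at rest and -0.16 with LPS, and its libraries did not overlap in either condition. Tap1, which loads peptides into the endoplasmic reticulum, had -0.42, -0.70 at rest and -0.13 with LPS. The type I interferon-stimulated genes had a similar median of -0.27, but 13 of 42 alone had the same sign in both conditions: the median was -0.57 at rest and 0.06 with LPS. For these genes the additive term is an average of unlike values, and its median was -0.13 without WT replicate 1 at rest.

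Integrated stress response genes had 21 negative and 5 positive terms of 26, with a median of -0.21 (-0.12 without WT replicate 1 at rest). The median difference was -0.21 at rest and -0.03 with LPS, and 14 of the 26 had the same sign in both conditions, so as a list they were not a difference seen alike in both. Atf5, a transcription factor of mitochondrial stress, had -0.50 (SE 0.16, adjusted p 0.564) and did not overlap between the genotypes in either condition. Slc7a5, an amino acid transporter, had -0.82 and Phgdh, which opens serine synthesis, -0.52, while Atf4 and Ddit3, central factors of the response, had -0.03 and -0.01.

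Genes of the electron carrier's own pathway stayed near 0. Of 14 measured genes of coenzyme Q biosynthesis 7 had positive and 7 negative terms, between -0.22 in Coq8b and 0.06, with a median of -0.003. Their signs agreed between conditions in 5 of 14. The 13 mitochondrially encoded genes all had positive terms, between 0.35 and 0.70 with a median of 0.43, and 0 passed by limma. All 13 genes had positive differences in both conditions, with a median of 0.60 at rest and 0.25 with LPS. Their list mean spread by 0.79 (SD) between libraries of a group. Without WT replicate 1 at rest, the library of the lowest mitochondrial share, the median was 0.08, and without both replicate 1 libraries at rest 0.27. Nuclear genes of the respiratory chain were split: Complex I had 27 positive and 21 negative terms of 48 (median 0.03) and Complexes III to V 24 and 11 of 35 (median 0.06). Without WT replicate 1 at rest these 2 medians were -0.02 and -0.04, and with the mitochondrial covariate -0.04 and -0.05. Cytosolic ribosomal protein genes had 51 positive and 6 negative terms of 57, with a median of 0.15 (0.01 without WT replicate 1 at rest).

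The remaining lists had no member that passed. Fatty acid oxidation genes had 17 negative terms of 19 (median -0.07), cell cycle genes 32 of 42 (median -0.10), mitochondrial chaperones and proteases 16 of 22 (median -0.06), and quinone-linked dehydrogenases 9 of 13 (median -0.07). Single libraries moved these medians: fatty acid oxidation was at -0.02 without WT replicate 1 at rest and at -0.13 without D316Y replicate 1 at rest, where the cell cycle was at -0.20. Without WT replicate 1 at rest the chaperones and proteases were at -0.03, as were the dehydrogenases. Among cell cycle genes Ccnd3, a G1 cyclin, had -0.29 (SE 0.10, adjusted p 0.564) and did not overlap between the genotypes in either condition. Genes of sterol regulation and uptake had 15 negative terms of 19 (median -0.09), with Mylip, which targets the LDL receptor for breakdown, at 0.30 and Apoe at -0.38. NRF2 and glutathione genes were split, with 14 negative and 12 positive terms (median -0.03); Gsta3, a glutathione transferase, had -0.55.

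The sign was the same in both conditions for 14 of 28 cytokines and chemokines, 23 of 31 inflammatory effectors and feedback genes and 11 of 26 Toll-like receptor signalling genes, against 63.8% of all genes; the lists were not tested against each other. Cytokines and chemokines had 19 negative terms, with medians of -0.31 at rest and 0.14 with LPS, and a median term of -0.14 (-0.04 without D316Y replicate 1 at rest). Il12b, a chain of interleukin-12, had 2.70 at rest and 0.50 with LPS (term 1.60, SE 0.45, adjusted p 0.564), and the T cell chemoattractant Cxcl9 had -0.49 and -0.45. Inflammatory effectors and feedback genes had 20 negative terms (median -0.15, and -0.04 without WT replicate 1 at rest); the scavenger receptor Marco had -0.96 (SE 0.36) and Nfkb2 -0.33. Toll-like receptor signalling genes had 19 negative terms (median -0.04, and 0.01 without WT replicate 1 at rest), with the DNA sensor Tlr9 at -0.55. MHC class II genes had 8 positive and 5 negative terms (median 0.004, and -0.08 without D316Y replicate 1 at rest). Osteoclast markers had 4 of each among 8, with Dcstamp, which fuses precursor cells, at 0.70.

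**Figure D5:**
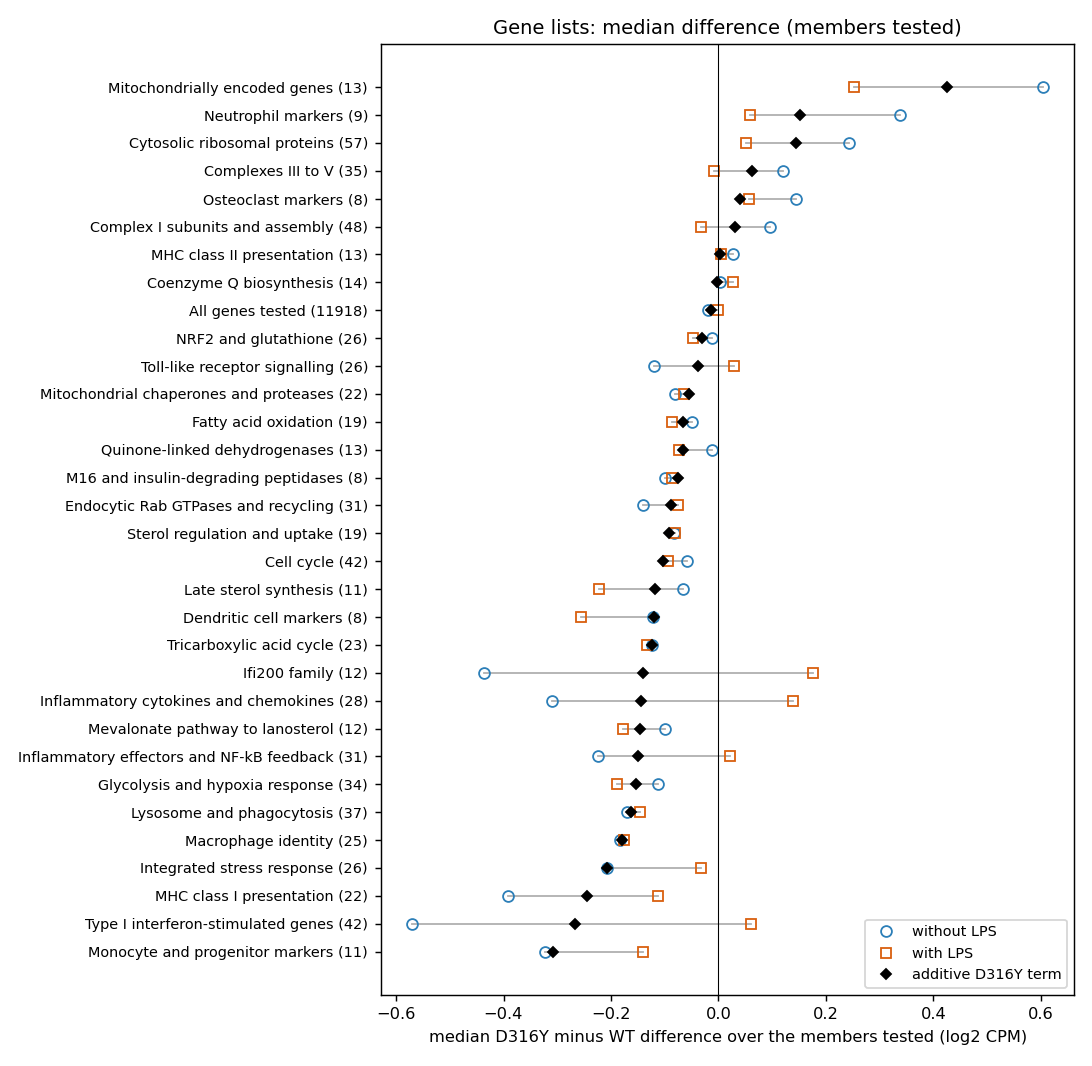
Median D316Y minus WT difference over the members tested (x axis, log2 CPM) for each gene list with at least 8 members tested and for all genes (y axis, members tested in brackets). Circles are at rest, squares with LPS and black diamonds the additive term; the tricarboxylic acid cycle, lysosome and macrophage lists nearly coincide in both conditions, while the interferon-stimulated genes lie at -0.57 at rest and 0.06 with LPS.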

How the data were processed

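RNA-seq of 12 libraries of mouse bone marrow-derived macrophages was analysed. The authors deposited 2 tables of 12493 entries with the same log2 CPM values for all libraries, plus the authors' log2 fold change and p-value of each genotype comparison, per the file headers. Per the submitters' processing notes, the tools were STAR 2.5.1a, featureCounts 1.4.6-p5 of Subread, limma, edgeR and bcl2fastq; the genome build, the annotation and the settings are not stated. After 52 repeated identifiers were taken once, 12441 genes remained, all found in GENCODE M21 (GRCm38), which gave the positions; 15 symbols turned into dates were restored. In each library 100% of values under 200 reads lay within 0.01 of a whole read (taking log2 of reads + 0.5, scaled by each library), which gave the reads printed; they cover counting error only.

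Genotype and LPS were fitted additively per gene with limma 3.58.1 in R 4.3.3 (eBayes with trend and robust, two-sided, Benjamini-Hochberg over 11918 genes, threshold 0.05, no fold minimum); "passed" means an adjusted p under 0.05. The 4-group fit gave the difference in each condition and the interaction. The script was tested on simulated data. Named genes are Coq6, all that passed, those of smallest p up to 10 in a direction, and up to 4 members of each list or the whole Ifi200, sterol, coenzyme Q, Rab and substrain lists; other genes (neighbours and copies of a gene that passed, Idh3g, Atf4, Ddit3, Pmpca, Pmpcb, Pitrm1, and genes at the ends of X and Y) were chosen with their values known. Members, lists (35, with 810 entries) and tests were chosen with earlier results of these data known. Similar transcripts were sought with blastn 2.17.0 (at least 90% identity). Promoters come from RefSeq (GRCm38.p6); 6 of the 8 genes matched by symbol.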

Additional observations from a re-analysis of the deposited data

How the results depend on the processing

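Over 24 alternatives (filters, moderation, scaling, weights, blocks, a mitochondrial covariate and left-out libraries) 6 of the 8 genes kept their calls throughout: Ifi208, Rab4a, Ide, G530011O06Rik, Dhcr7 and Cnbd2. Leaving out 1 library each gave 6 to 8 genes in all, 2 to 3 higher and 4 to 6 lower. Library weights gave 21 genes (8 higher, 13 lower), and leaving out both replicate 1 libraries at rest gave 18, with 11 higher. The interaction passed for 0 genes in all 23 alternatives fitted for it, with 134 to 511 genes at an unadjusted p under 0.05. Selenbp2 and Gm36079 also missed the threshold with the average of the 2 differences from 4 groups (adjusted p 0.0574 each). The stricter minimum of 2 log2 CPM took Gm36079 to 0.0648 and left Selenbp2 untested. The cause was not tested. No called gene changed direction; of 193 named genes that did not pass, 35 changed sign and 11 passed in some alternative.

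Same-numbered libraries of the genotypes correlated in their deviations from the group means at rest (0.606, 0.527 and 0.154) and not with LPS (-0.096, 0.057 and -0.019), so every pair at rest was over 0.1 and none with LPS, and the numbers were not taken as pairs over both. With the replicate number as a block within each condition 127 genes passed, 97 higher and 30 lower, the 8 among them, and also 11 named genes that missed the threshold without it: Ccr7, Mefv, Zfp704, Eps8l1, Uty, Cd59a, Col18a1, Ddah2, Crlf2, Nt5dc2 and Tfrc (adjusted p 0.0169 to 0.0479), and Gm21860 and Gm21748 (0.0481). With the replicate block across conditions 8 passed, 6 of them shared, without Selenbp2 and Gm36079 (0.0603 each). With the replicate block by correlated libraries of a genotype the same 8 passed.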

Other observations

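Of 11918 genes tested, 16 had all 6 D316Y libraries on 1 side of all 6 WT libraries over both conditions, 6 higher and 10 lower. Beside the 6 of them that passed, 10 did not pass, and these were picked with their values in view. Ext2, which builds heparan sulfate chains, had a term of -0.51 (SE 0.12, adjusted p 0.350) and Stt3b, a catalytic subunit of the complex that attaches N-linked glycans, -0.57 (SE 0.15, adjusted p 0.536). Emc9, of the complex that inserts proteins into the membrane of the endoplasmic reticulum, had -0.27 (SE 0.10, adjusted p 0.564). Hes6 had -0.43, the valyl-tRNA synthetase Vars -0.42, Mid1 -1.56 and Gm23935 -0.42. Higher in D316Y were Eps8l1 (0.94), Gnal (0.47) and Abraxas1 (0.31).

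Toward the ends of chromosomes X and Y, Mid1, Asmt, Gm47283, Gm21860 and Gm21748, picked with their values in view, had negative terms. Asmt on chromosome X had -0.61 (SE 0.19, limma adjusted p 0.564) and Gm47283 on chromosome Y -1.34 (SE 0.42, adjusted p 0.564), in the direction of G530011O06Rik. Gm15261 on chromosome X had 1.45 (SE 0.47, limma adjusted p 0.564). It lies outside Mid1, at 169037674 to 169106536 against 169685199 to 170005736. The reads of Gm15261 were 86, 834 and 354 in WT against 663, 2055 and 977 in D316Y at rest, and 50, 40 and 65 against 112, 58 and 137 with LPS.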
